A study of Homo sapiens with 54 samples.

Results

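The response of olaparib-treated MDA-MB-468 cells to the higher dose of cisplatin (CDDP) was described from the 3 libraries of cells given 3 µM olaparib with 2.5 µM CDDP and the 3 libraries of cells given 3 µM olaparib without CDDP, chosen by their labels, 6 of the 54 libraries of the series. MDA-MB-468 is a triple negative breast cancer (TNBC) cell line that the study describes as BRCA1 wild type and p53 mutant. The parental cells were treated overnight in DMEM/F12 medium with serum. The study also held untreated parental cells, parental cells with 1 or 2.5 µM CDDP without olaparib or with 1 µM CDDP and olaparib, and olaparib resistant (OlaR) MDA-MB-468 cells, kept in 15 µM olaparib, without and with 1 or 2.5 µM CDDP. The same plan, with other doses, was followed in a second line, SUM1315. The labels do not say whether the 3 libraries of a condition came from separate cultures, so the p-values measure the spread between these libraries, which may be technical.

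CDDP binds DNA and joins neighboring or facing bases, and these crosslinks block replication forks until excision repair, the Fanconi anemia pathway and homologous recombination remove them. Olaparib blocks poly(ADP-ribose) polymerases and holds PARP-1 on broken DNA. Cells that meet such lesions in S phase can slow replication and delay entry into mitosis through the ATR and CHK1 kinases, and damaged or starved cells can also engage the MAP kinases that drive AP-1 factors such as JUN, and the integrated stress response, in which the factor ATF4 turns on genes of amino acid uptake and synthesis.

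The results below turn on 3 groups of genes with known promoter elements, and 1 or 2 promoters of each are shown with matches to the letters of such elements. The windows hold 250 bases before and 50 bases after 1 listed start of each gene in the RefSeq promoter table for GRCh38.p14, written 5′ to 3′ on the strand of the gene. In the windows of PLK1 (chr16:23678639-23678938, plus strand) and PIF1 (chr15:64825598-64825897, minus strand), capitals mark CCAAT, which binds NF-Y, and the cell cycle genes homology region (CHR) of mitotic genes, searched as TTTGAA or TTCGAA. In the window of ATF3 (chr1:212565157-212565456, plus strand), capitals mark the core of the ATF4 element, searched as TGATGNAA, and CCAAT. In the window of CLSPN (chr1:35769929-35770228, minus strand), capitals mark an E2F site, searched as TTTCCCGC or TTTGGCGC, and CCAAT.
PLK1: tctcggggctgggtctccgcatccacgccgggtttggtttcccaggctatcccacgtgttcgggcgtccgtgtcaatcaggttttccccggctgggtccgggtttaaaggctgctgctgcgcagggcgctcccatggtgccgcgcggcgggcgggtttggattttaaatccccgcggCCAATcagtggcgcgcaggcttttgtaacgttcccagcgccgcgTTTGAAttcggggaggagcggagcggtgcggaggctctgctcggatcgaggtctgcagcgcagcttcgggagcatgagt
PIF1: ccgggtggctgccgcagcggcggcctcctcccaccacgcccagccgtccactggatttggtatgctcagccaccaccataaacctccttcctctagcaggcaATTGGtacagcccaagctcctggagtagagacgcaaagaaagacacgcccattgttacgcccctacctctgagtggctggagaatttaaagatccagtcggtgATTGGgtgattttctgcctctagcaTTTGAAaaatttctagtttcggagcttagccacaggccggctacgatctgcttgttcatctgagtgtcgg
ATF3: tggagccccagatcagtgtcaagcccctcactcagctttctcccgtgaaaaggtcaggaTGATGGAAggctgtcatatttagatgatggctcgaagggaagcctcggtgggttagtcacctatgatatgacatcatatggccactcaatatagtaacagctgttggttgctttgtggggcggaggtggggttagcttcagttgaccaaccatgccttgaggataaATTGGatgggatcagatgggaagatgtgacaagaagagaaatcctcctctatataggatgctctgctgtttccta
CLSPN: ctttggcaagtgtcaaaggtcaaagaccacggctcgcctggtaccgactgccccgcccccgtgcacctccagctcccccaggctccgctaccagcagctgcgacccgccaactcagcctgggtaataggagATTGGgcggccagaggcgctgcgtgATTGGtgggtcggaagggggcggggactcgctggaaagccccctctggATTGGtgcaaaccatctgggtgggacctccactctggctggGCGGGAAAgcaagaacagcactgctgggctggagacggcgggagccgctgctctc

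All motifs were searched on both strands, and no motif word holds another whole, although neighboring matches can share bases. The window of PIF1 lies inside the span that RefSeq gives the gene, whose outermost start is farther upstream. The window of ATF3 lies at the outermost start of a span of 55.4 kb. Other starts of ATF3 were not searched, and whether its marked letters are a site that ATF4 uses was not tested. Distances are from the start listed in the promoter table. The CHR word began 29 bases before the PLK1 start and 20 bases before the PIF1 start, with CCAAT 73 bases before the start in PLK1 and 45 and 148 bases before it in PIF1. CHR letters were found in 72.3% of 65 matched promoters of G2/M and mitotic spindle genes and in 16.4% of all 35116 promoters. CCAAT was found in 72.3% of the same 65 and in 34.6% of all. E2F letters were found in 44.7% of 47 matched promoters of E2F target and replication genes and in 2.27% of all, and ATF4 element cores in 28.6% of 35 matched promoters of integrated stress response genes and in 3.62% of all. The AP-1 word TGANTCA was in 3.57% of 28 matched promoters of AP-1 and immediate early genes and in 7.71% of all. The cAMP response element TGACGTCA was in 7.14% of these 28 and in 1.85% of all. These windows were picked by gene list and the letters are a description of the sequence, not of binding. The named genes counted next also include CHAC1, DUSP1, GADD45A, KIF20A and ANGPTL4, which were picked from the lists but whose changes are not described below. Of the named genes that rose, 23 of 31 had a listed promoter, and 15 of these held CCAAT, 3 the CHR letters, 3 TGACGTCA, 3 the ATF4 core, 1 TGANTCA and 2 an E2F word. Of the named genes that fell, 13 of 19 had one, and 8 of these held CCAAT, 5 the CHR letters and 0 any of the other 4 motifs.

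Libraries of olaparib-treated cells held 6867889 to 9268162 recovered reads and those with 2.5 µM CDDP added held 6174804 to 7673713. QuantSeq libraries give 1 read per transcript near its 3′ end, so values are not scaled to gene length, and levels of different genes were not ranked against each other. All values are the authors' adjusted read counts, which bring each library to a common effective size of 5585170 reads, that is a size scaled by edgeR's TMM factors. The adjusted values themselves summed to 5473253.5 to 5529193.4 in the olaparib libraries and to 5140428.7 to 5170487.1 with CDDP added. Log2 fold changes are on the log2(value + 1) scale, which understates the change of low genes. Libraries of the same condition correlated at r of 0.975 to 0.980 over genes and libraries of the 2 conditions at 0.967 to 0.972, over genes that are not independent replicates.

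Adding 2.5 µM CDDP to olaparib raised 166 of 13012 genes tested and lowered 83, by limma with Benjamini-Hochberg adjustment (adjusted p of at most 0.05 and at least a 2-fold change), which is 1.28% and 0.638% of the genes. By adjusted p alone, 1310 genes (10.1%) rose and 1700 (13.1%) fell, and the median log2 fold change of all genes was -0.0015. The larger changes were thus mostly rises, and the smaller ones more often falls. The 3 and 3 libraries did not overlap in 4539 genes, 34.9% of those tested, and in 159 of the 166 and 78 of the 83 called genes. Of the called genes, 85 that rose and 41 that fell had a mean of at least 30 adjusted reads. The largest rises and falls named below come from these and were picked only where the libraries did not overlap. Their lack of overlap was thus set by the choice and is given as a description.

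**Figure D1:**
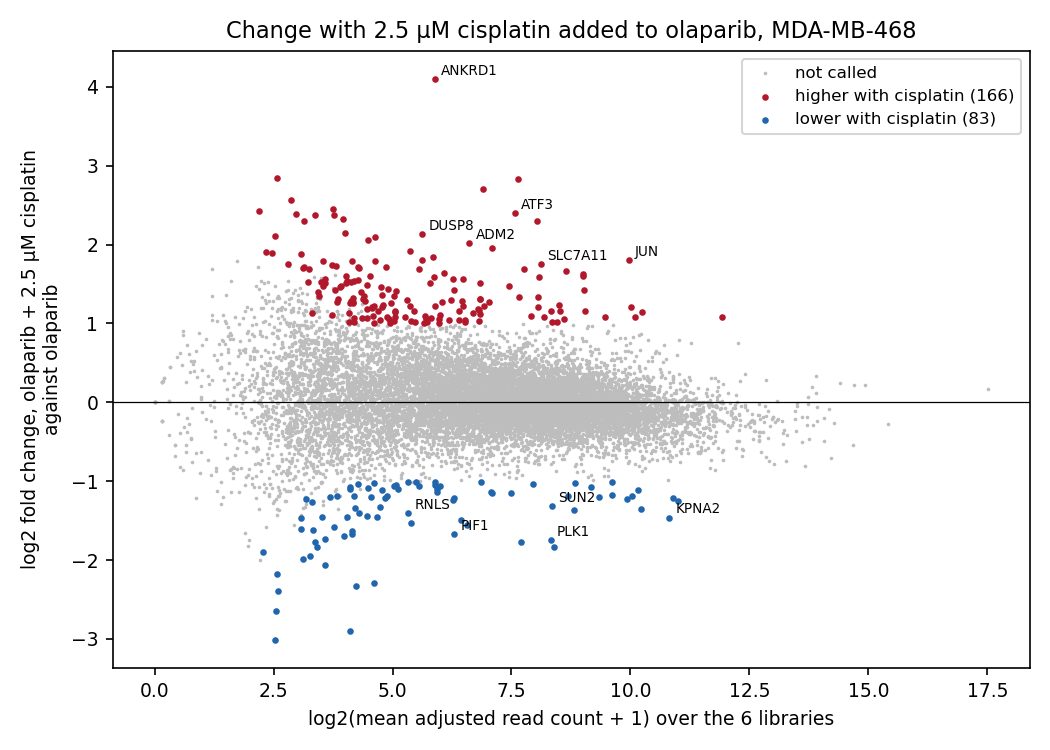
Log2 fold change of each of the 13012 genes (y axis, olaparib with 2.5 µM CDDP against olaparib) by its mean level over the 6 libraries (x axis, log2 of adjusted reads + 1). Red points are the 166 genes called higher and blue points the 83 called lower, gray points the rest, and some of the named genes are labelled.

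The largest rise of a gene above this level was that of ANKRD1 (chromosome 10, 90912096 to 90921087 in GRCh38), which encodes a nuclear ankyrin repeat protein and is a known target of the YAP coactivator. Its level was 3.68, 4.77 and 9.19 in the olaparib libraries and 101, 124 and 108 with CDDP added. Every library with CDDP stood above every one without, and the log2 fold change was 4.10 (SE 0.37, adjusted p = 4.7e-13). Untreated cells lay between, at 19.8 to 25.3, and olaparib alone lowered the gene by a log2 fold change of -1.84 (adjusted p = 0.00013). CTGF, a matricellular protein and also a YAP target, was at 19.2, 16.4 and 27.1 with olaparib and at 59.0, 87.7 and 77.8 with CDDP added (log2 fold change 1.8, SE 0.19, adjusted p = 4.9e-11). Its levels with CDDP did not overlap those without, but they remained below the 195 to 232 of untreated cells. THBS1, the adhesive glycoprotein thrombospondin, rose from 63.8, 55.7 and 45.3 to 195, 217 and 233 (log2 fold change 1.96, SE 0.15, adjusted p = 1.2e-15). Its untreated libraries, at 130.1 to 138, also lay between the groups.

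Several other genes were among the largest rises. EDN1, the vasoconstrictor peptide endothelin, was at 104, 99.99 and 101 with olaparib and at 333, 323 and 335 with CDDP added (log2 fold change 1.69, adjusted p = 3.9e-15). OLR1, a receptor for oxidized lipoprotein, was at 13.4 to 18.6 and then at 59.8 to 71.3 (1.92, adjusted p = 1.4e-08). HBEGF, a ligand of the EGF receptor, was at 3.50 to 13.3 and then at 33.1 to 41.2 (2.10, adjusted p = 8.7e-05). None of these 3 genes overlapped between the groups. HBEGF was the 1 member called at 2-fold among 9 tested EGF receptor family genes. Of the 9, 2 rose by adjusted p and 0 fell, against 10.1% and 13.1% of all genes. Their median log2 fold change was 0.29, and 0.06 without combination replicate 3. ID4, an inhibitor of helix-loop-helix factors, was at 102, 95.7 and 67.4 with olaparib and at 427, 422 and 449 with CDDP added (log2 fold change 2.30, SE 0.13, adjusted p = 6.9e-20). Its libraries with CDDP were apart from those without and also above the 257 to 268 of untreated cells. NEDD9, a scaffold of adhesion signaling, rose from 14.2 to 35.5 up to 79.1 to 101 (1.84, adjusted p = 5.7e-09).

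**Figure D2:**
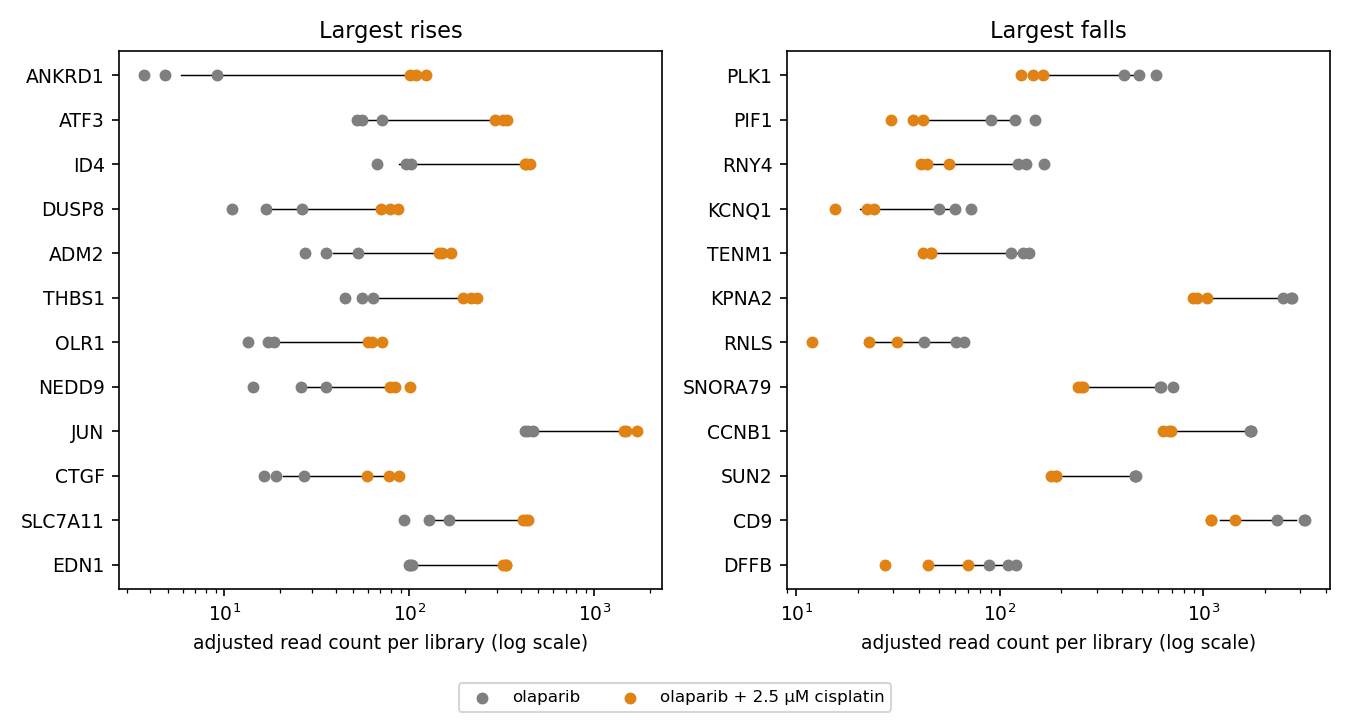
Adjusted read count (x axis, log scale) of the 12 largest rises (left) and 12 largest falls (right) among genes with a mean of at least 30, leaving out GADD45A, DUSP6, EPHB1, CHAC1, DUSP1, KIF20A and ANGPTL4, 1 dot per library, gray for olaparib and orange for olaparib with 2.5 µM CDDP, with a line between the means. Only genes whose libraries did not overlap were picked. The 3 orange dots thus lie on 1 side of the 3 gray ones in all 24.

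Genes of the integrated stress response rose together. Of 44 tested members, 34 rose and 1 fell by adjusted p, against 10.1% and 13.1% of all genes, and 13 rose at least 2-fold, against 1.28%. The median log2 fold change was 0.72, and the libraries of the 2 groups did not overlap in 37 members, against 34.9% of all genes. ATF3, a stress-induced partner of ATF4, was at 52.1, 71.7 and 55.3 with olaparib and at 336, 322 and 293 with CDDP added. The lowest library with CDDP was thus above the highest without, and the log2 fold change was 2.40 (SE 0.17, adjusted p = 8.5e-17). ADM2, a peptide hormone of the calcitonin family, was at 53.1, 35.6 and 27.4 and then at 145, 168 and 151 (2.02, SE 0.22, adjusted p = 1.4e-10). SLC7A11, the cystine carrier that feeds glutathione synthesis, was at 165, 93.7 and 129 and then at 412, 438 and 430 (1.75, SE 0.12, adjusted p = 1.4e-16). SESN2, a stress-induced brake on the kinase mTORC1, was at 140, 134 and 129 and then at 402, 384 and 436 (1.59, adjusted p = 2.3e-15), and STC2, a secreted glycoprotein, at 247, 236 and 274 and then at 795, 783 and 730 (1.61, adjusted p = 1.7e-21). No library overlapped between the groups in any of these genes. INHBE, an activin subunit, had few reads, at 0.252 to 4.65 and then at 7.96 to 23.8 (2.30, adjusted p = 0.0091), and was not called without olaparib replicate 1 or without combination replicate 1 (adjusted p = 0.082 in both). ATF4 itself, named for its role after its values were seen, was at 3281 to 3451 and then at 3171 to 3420, which overlapped (-0.04, adjusted p = 0.68).

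Olaparib alone, against untreated cells, lowered 38 of the 44 members by adjusted p and raised 1, with a median log2 fold change of -0.60, where 9.11% of all genes were lower and 12.4% higher. This comparison shares the olaparib libraries with the one above, so the same 3 libraries enter both with opposite sign. Untreated libraries held 98.5 to 131 adjusted reads of ADM2, 374 to 390 of SLC7A11, 243 to 289 of SESN2 and 746 to 868 of STC2, in each case above the olaparib libraries. With CDDP added, SLC7A11, SESN2 and ADM2 stood above their untreated libraries, and STC2 overlapped them. ATF3 differed from these, since its untreated libraries, at 64.3 to 72.2, overlapped those with olaparib (log2 fold change of olaparib alone -0.22, adjusted p = 0.40).

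More AP-1 and immediate early genes rose than fell, and some MAP kinase phosphatases that act in feedback on this pathway rose. Of 37 AP-1 and immediate early genes tested, 20 rose and 3 fell by adjusted p, against 10.1% and 13.1% of all genes. The other 14 did not pass. A rise of at least 2-fold was seen in 9, against 1.28% of all genes, and the median was 0.68. JUN, a component of AP-1, was at 436, 423 and 467 with olaparib and at 1712, 1491 and 1458 with CDDP added (log2 fold change 1.81, SE 0.08, adjusted p = 3.3e-24). These groups did not overlap, and the untreated libraries held 610 to 684. EGR3, another immediate early factor, was at 0.519 to 2.48 and then at 1.31 to 20.7. Its groups overlapped, and its call (1.88, adjusted p = 0.029) was lost without combination replicate 1 (adjusted p = 0.17), combination replicate 3 (0.23) or olaparib replicate 2 (0.15). Of 27 MAPK feedback genes, 8 rose and 1 fell by adjusted p and 4 rose at least 2-fold, against the same shares of all genes. Their median was 0.35. DUSP8, a phosphatase of JNK and p38, was at 26.4, 11.1 and 16.8 and then at 87.5, 70.2 and 78.5 (2.14, SE 0.37, adjusted p = 8.3e-06). DUSP10, with the same substrates, was at 4.497 to 10.96 and then at 19.7 to 33.8 (1.53, adjusted p = 0.013), and was not called without combination replicate 1 (adjusted p = 0.080) or olaparib replicate 3 (0.0998).

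Genes of DNA replication rose in large number and by small amounts. Of 58 tested E2F targets and replication genes, 50 rose and 1 fell by adjusted p, against 10.1% and 13.1% of all genes. A rise of at least 2-fold was seen in 5, against 1.28% of all genes. The median of the 58 was 0.58, and 52 did not overlap between the groups, against 34.9% of all genes. CCNE2, a cyclin that drives entry into S phase, was at 43.6, 47.6 and 40.8 with olaparib and at 109, 149.97 and 138 with CDDP added (log2 fold change 1.56, SE 0.19, adjusted p = 6.7e-09). E2F7, a repressor among the E2F factors, was at 68.9, 78.0 and 49.8 and then at 159, 158 and 165 (1.30, adjusted p = 5.8e-09). CLSPN encodes claspin, which links ATR to CHK1 at stalled forks, and was at 751, 688 and 829 and then at 1634, 1635 and 1719 (1.14, SE 0.07, adjusted p = 3.5e-18). The groups of all 3 genes were apart, and their untreated libraries held 30.1 to 54.8 adjusted reads of CCNE2, 60.8 to 80.9 of E2F7 and 659 to 742 of CLSPN, which overlapped those with olaparib.

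DNA repair genes changed less uniformly. Of 45 homologous recombination and Fanconi anemia genes, 23 rose and 2 fell by adjusted p, against 10.1% and 13.1% of all genes. Their median was 0.37, and 15 rose without combination replicate 1. EXO1, a nuclease that resects broken ends, was at 193, 262 and 241 with olaparib and at 487, 476 and 442 with CDDP added (log2 fold change 1.02, adjusted p = 1.9e-10). Its groups were apart, but its fold stood at the 2-fold limit, with log2 values of 0.90 without olaparib replicate 1 and 0.99 without combination replicate 1. DMC1, a meiotic recombinase, was called on 1 to 13 reads a library (1.89, adjusted p = 0.019) and was not called without olaparib replicate 1 (0.11) or replicate 3 (0.072) or combination replicate 2 (0.072). Of 33 excision repair and translesion synthesis genes, 8 rose and 3 fell, the falls a smaller share than the 13.1% of all genes. Of these, 0 changed 2-fold, where 1.28% of all genes rose and 0.638% fell by that much. USP1, which removes ubiquitin from FANCD2 and PCNA, was at 1477 to 1694 and then at 2405 to 2495 (0.60, adjusted p = 1.5e-11). Of 38 PARP and base excision repair genes, 8 rose and 4 fell, the falls again a smaller share than that of all genes, and 0 of them 2-fold. HMGB1, a chromatin protein, went from 2131 to 2592 down to 1618 to 1808 (-0.47, adjusted p = 6.4e-08).

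Clustered histone genes were read at low levels. Of 34 tested, 12 rose and 1 fell by adjusted p, against 10.1% and 13.1% of all genes. A rise of at least 2-fold was seen in 5, against 1.28% of all genes. Without olaparib replicate 1, 2 rose 2-fold, and without combination replicate 3, 3 did. HIST1H2BF was at 5.28 to 13.4 and then at 22.9 to 33.8 (1.71, adjusted p = 0.011), HIST2H2AB at 3.38 to 9.504 and then at 15.0 to 28.5 (1.60, adjusted p = 0.0072) and HIST1H2AH at 5.80 to 14.2 and then at 18.7 to 31.6 (1.29, adjusted p = 0.029). None of the 3 was called without olaparib replicate 1 (adjusted p = 0.063, 0.083 and 0.15), HIST1H2BF and HIST1H2AH were not called without combination replicate 3 (0.051 and 0.053), and HIST1H2AH was also not called without combination replicate 1 (0.13) or olaparib replicate 2 (0.072). Histone genes are near copies of one another, and reads may be split between them. Most mRNAs of these genes also lack a poly(A) tail, and libraries primed on poly(A) are not made to count them. The values thus need not follow the histone mRNA of the cells.

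**Figure D3:**
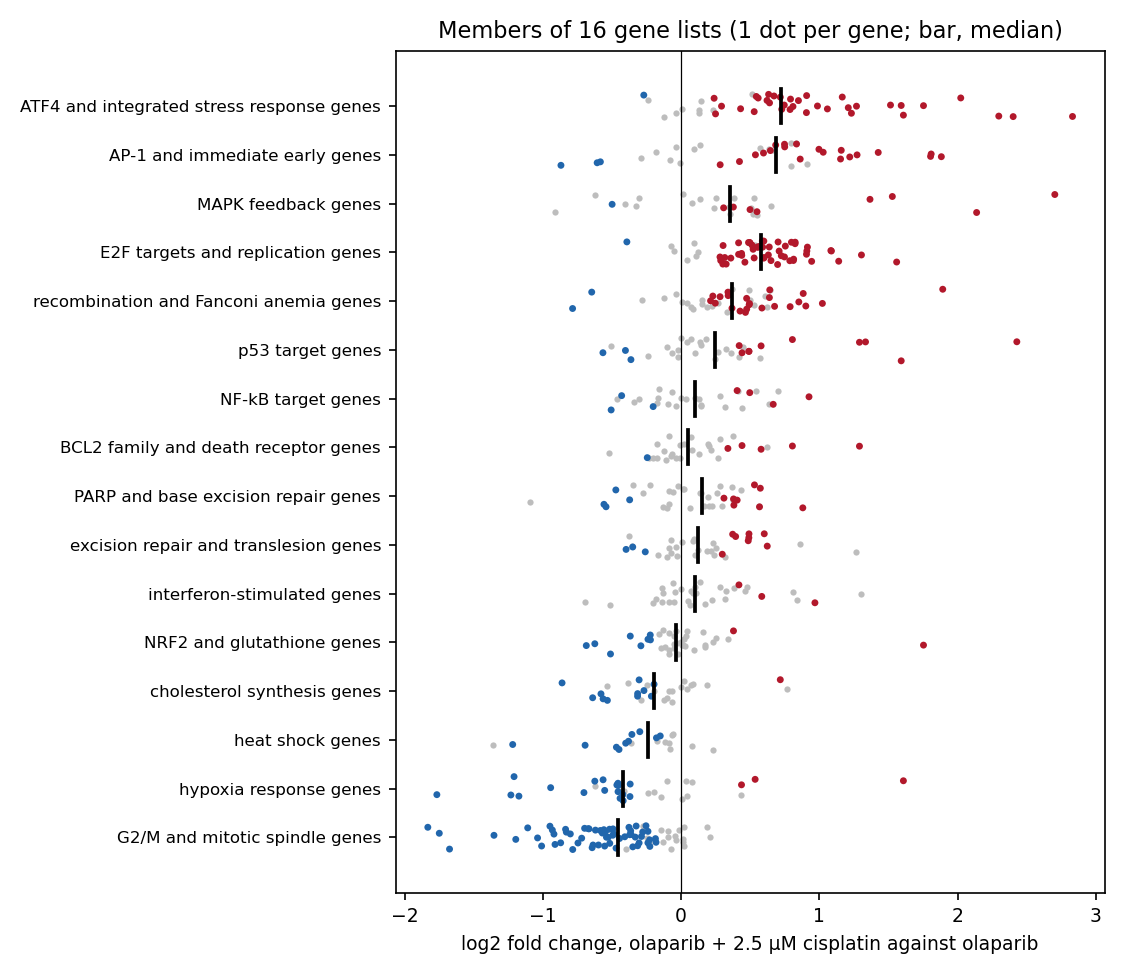
Log2 fold change (x axis, olaparib with 2.5 µM CDDP against olaparib) of the tested members of 16 gene lists (rows), 1 dot per gene, red or blue where it rose or fell by adjusted p and gray where it did not pass, with the list's median as a bar. The median lies at 0.72 for the integrated stress response genes at the top and at -0.46 for the G2/M genes at the bottom.

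Most genes of the G2/M list fell. Of 78 tested G2/M and mitotic spindle genes, 59 fell and 0 rose by adjusted p, against 13.1% and 10.1% of all genes, and 8 fell at least 2-fold, against 0.638%. The median log2 fold change was -0.46, and 66 members did not overlap between the groups, against 34.9% of all genes. PLK1, a kinase that starts mitosis and builds the spindle (chromosome 16, 23678889 to 23690367 in GRCh38), was at 482, 409.8 and 588 with olaparib and at 163, 127 and 146 with CDDP added. The groups did not overlap, with a log2 fold change of -1.75 (SE 0.12, adjusted p = 9.3e-17). CCNB1, the cyclin partner of CDK1 at mitotic entry, was at 1691, 1709.9 and 1719 and then at 696, 632 and 677 (-1.35, SE 0.06, adjusted p = 6.0e-23). PIF1, a DNA helicase, was at 90.7, 118 and 149 and then at 37.6, 29.3 and 42.1 (-1.67, adjusted p = 7.0e-09). KPNA2, a nuclear import receptor that is high in dividing cells, fell from 2466, 2739 and 2695 to 1047, 933 and 889 (-1.46, SE 0.07, adjusted p = 6.0e-23). These 4 genes share CCAAT in their listed promoters, and PLK1, PIF1 and KPNA2 the CHR letters.

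The untreated libraries lay between the groups for several of these genes. They held 297 to 372 adjusted reads of PLK1, 1064 to 1127 of CCNB1 and 1388 to 1545 of KPNA2. Olaparib alone raised 56 of the 78 G2/M genes by adjusted p and lowered 0, with a median of 0.38, against 12.4% and 9.11% of all genes, on the same olaparib libraries. The levels of PLK1, CCNB1 and KPNA2 with CDDP added were below the untreated libraries as well. CDK1, named for its role after its values were seen, fell by a log2 fold change of 0.32 (adjusted p = 6.5e-06), from 3226 to 3533 down to 2619 to 2862, and remained above its untreated 1956 to 2211.

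Other large falls were of genes with various roles. SUN2, which joins the nuclear envelope to the cytoskeleton, was at 462, 462 and 466 with olaparib and at 188, 179 and 189 with CDDP added (log2 fold change -1.32, adjusted p = 3.8e-16). CD9, a tetraspanin of the cell surface, was at 3164, 3118 and 2305 and then at 1424, 1086 and 1093 (-1.25, adjusted p = 1.7e-13). KCNQ1, a potassium channel, was at 50.5 to 72.4 and then at 15.5 to 24.0 (-1.53, adjusted p = 7.9e-06), and TENM1, a teneurin of neuronal contacts, at 113 to 139.7 and then at 41.9 to 46.0 (-1.49, adjusted p = 2.3e-08). None of these genes overlapped between the groups. RNLS, a flavin oxidoreductase, was at 42.6 to 66.5 and then at 11.9 to 31.1 (-1.40, adjusted p = 0.00048). DFFB, the nuclease that cuts DNA in apoptosis, was at 88.5 to 119 and then at 27.3 to 69.8 (-1.24, adjusted p = 1.2e-05), and its log2 fold change was -0.90 without combination replicate 3. The small RNAs RNY4 (122 to 164, then 40.8 to 56.5, -1.56, adjusted p = 6.4e-09) and SNORA79 (612 to 709, then 243 to 256, -1.37, adjusted p = 1.9e-10) also fell, although libraries primed on poly(A) are not made to count such RNAs and reads of host or copy genes may enter them.

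Hypoxia response genes, which are targets of the factor HIF-1, mostly fell. Of 33 tested, 18 fell and 3 rose by adjusted p, against 13.1% and 10.1% of all genes. By at least 2-fold, 4 fell and 1 rose, against 0.638% and 1.28%, and the median was -0.42. NDRG1, a stress-responsive protein of differentiated cells, was at 1371, 1309.5 and 1417 with olaparib and at 588, 587 and 569 with CDDP added (log2 fold change -1.23, SE 0.06, adjusted p = 1.1e-23). STC1, a secreted hormone, was at 1067, 1120.03 and 1083 and then at 483, 452 and 516 (-1.17, adjusted p = 2.0e-20). In both genes all libraries with CDDP were also below the untreated ones, at 1501 to 1519 for NDRG1 and 958 to 1083 for STC1. The member that rose 2-fold was STC2, which is also in the list of stress response genes above.

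Chaperone and cholesterol genes fell by less. Of 20 heat shock genes, 10 fell and 0 rose by adjusted p, against 13.1% and 10.1% of all genes. Their median was -0.24. Where 0.638% of all genes fell 2-fold, 1 of the 20 did. This was HSPA1A, an inducible HSP70, at 2833, 2735 and 2391 with olaparib and at 1209, 1093 and 1112 with CDDP added (log2 fold change -1.22, SE 0.06, adjusted p = 2.6e-22). HSPA1B is a near-identical copy, and the counting could split reads between them. Of 29 cholesterol synthesis genes, 11 fell and 1 rose, against the same shares of all genes, 0 of them 2-fold, with a median of -0.20. IGFBP3, which binds insulin-like growth factors, fell from 1490.1, 1473 and 1428 to 645, 630.04 and 657 (-1.18, adjusted p = 2.6e-22).

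Most members of the p53 and cell death lists did not pass the test, as was so of all genes, of which 10.1% rose and 13.1% fell. The share of p53 targets that rose was above this. The study describes this line as p53 mutant, and the role of p53 was not tested. Of 33 p53 target genes, 10 rose and 3 fell by adjusted p, with a median of 0.24 (0.16 with no filter on low values). Without olaparib replicate 2, 6 rose. A rise of at least 2-fold was seen in 4 of the 33, against 1.28% of all genes. Of those 4, SESN2 is described above, and GDF15, a stress cytokine, rested on 0 to 2 reads with olaparib and 7 to 11 with CDDP added (log2 fold change 2.43, adjusted p = 0.0035). PMAIP1, the BH3-only protein NOXA, was at 46.7, 53.2 and 50.7 and then at 141, 117 and 116 (1.29, SE 0.16, adjusted p = 4.6e-09). It was the 1 member called at 2-fold of 30 BCL2 family and death receptor genes, where 5 rose and 1 fell by adjusted p, and 2 rose without olaparib replicate 2 and 3 without combination replicate 2. CDKN1A, an inhibitor of cyclin-dependent kinases, was at 55.5 to 82.1 and then at 74.6 to 118 (0.42, adjusted p = 0.16). It overlapped between the groups and was named for its role after its values were seen.

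The counts of the remaining lists are to be read against the 10.1% of all genes that rose and the 13.1% that fell by adjusted p. Of 29 NF-kB targets, 4 rose and 3 fell by adjusted p and 0 changed 2-fold, and 2 rose without olaparib replicate 3 or without combination replicate 2, and REL, a subunit of NF-kB, was at 91.1 to 124 and then at 140.3 to 194 (log2 fold change 0.67, adjusted p = 0.00048). Of 33 interferon-stimulated genes, 3 rose and 0 fell, and IFI6 was at 21.0 to 29.3 and then at 43.6 to 61.5 (0.97, adjusted p = 0.0019), just under 2-fold and above it without olaparib replicate 2 or 3 or combination replicate 1 (1.06, 1.02 and 1.08). Of 37 NRF2 and glutathione genes, 2 rose and 8 fell, and SLC7A11 was the 1 that rose 2-fold. Of 23 chromatin and elongation genes, 3 rose and 4 fell, and BRD2, a bromodomain protein, was at 1096 to 1225 and then at 1709 to 1874 (0.65, adjusted p = 6.0e-12). The 2 tested entries of the mitochondrial list, RNR1 (0.22, adjusted p = 0.0040) and RNR2 (0.17), rose slightly, although these symbols are also used for nuclear ribosomal RNA.

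Markers of breast epithelium were read at high levels in all 6 libraries of this epithelial line. Summed over 16 basal and epithelial markers, the olaparib libraries held 27032 to 27878 adjusted reads and those with CDDP added held 20160 to 20702, and KRT6A and TP63 were under 10 in all 6. KRT19, a keratin of simple epithelium, made up most of this sum in the olaparib libraries and fell from 15641 to 17657 down to 9303 to 9491 (log2 fold change -0.81, adjusted p = 4.5e-20). Of the 14 tested markers, 4 rose and 4 fell by adjusted p, against 10.1% and 13.1% of all genes. Of 6 hormone receptor and HER2 markers, summing to 1358 to 1382 and then to 1622 to 1724, PGR was under 10 in all 6 libraries and GATA3, a luminal factor, rose from 1076 to 1167 up to 1328 to 1447 (0.31, adjusted p = 0.00041). Mesenchymal markers summed to 104 to 127 and then to 89.2 to 119.96, with 7 of 11 under 10 in all 6 libraries, and VIM, the filament vimentin, fell from 30.4 to 39.95 down to 7.99 to 15.8 (-1.45, adjusted p = 0.00069). Immune and endothelial markers summed to 30.1 to 45.0 and then to 22.7 to 29.9, with 6 of 8 under 10 in all 6 libraries, and CD14 was at 21.0 to 39.1 and then at 8.04 to 20.9, which did not pass (-0.85, adjusted p = 0.17). In bulk libraries, fewer cells of a kind and less RNA per cell cannot be told apart.

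Among the larger falls were several genes of very long span. Of 391 tested genes longer than 300 kb in RefSeq, 22 fell and 0 rose at least 2-fold, against 0.638% and 1.28% of all genes. Their median was -0.15. By adjusted p 16.6% were lower and 2.81% higher, against 13.1% and 10.1% of all genes, so by this measure the bin differed mainly in having few rises. Genes of 100 to 300 kb had a median of -0.01 and those under 10 kb of -0.01, with 10.8% and 15.0% lower and 7.14% and 10.2% higher. By at least 2-fold, 7 of 1822 genes of 100 to 300 kb fell and 8 rose, and 24 of 2941 under 10 kb fell and 56 rose. KCNQ1, TENM1 and RNLS, described above, span 404, 828 and 412 kb. Of the 22 long genes that fell 2-fold, 9 had a mean of at least 30. The same bin of over 300 kb had a median of -0.42 for 2.5 µM CDDP without olaparib and of -0.81 in OlaR cells, and these are values of separate comparisons whose difference in the bin was not tested.

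Between the doses, 2.5 µM CDDP was compared with 1 µM, both with olaparib. By adjusted p, 368 genes (2.83%) were higher at 2.5 µM and 625 (4.8%) lower, of which 20 and 18 by at least 2-fold. The 20 became 12 without combination replicate 2 of the higher dose and 32 without replicate 3 of the lower dose, and the 18 became 29 without replicate 1 of the higher dose. The smallest p were those of NDRG1, IGFBP3 and JUN. NDRG1 held 1119.7 to 1257 adjusted reads at 1 µM and 569 to 588 at 2.5 µM (log2 difference -1.05, SE 0.06, adjusted p = 2.6e-20), and IGFBP3 held 995 to 1141 and 630.04 to 657 (-0.75, adjusted p = 2.0e-13). JUN held 806 to 849 at the lower dose and 1458 to 1712 at the higher (0.90, SE 0.08, adjusted p = 5.8e-12). None overlapped between doses. Of the lists, 25 of 78 G2/M genes were lower at the higher dose and 0 higher, 27 of 58 replication genes were higher and 1 lower, 17 of 44 stress response genes were higher and 1 lower, and 13 of 33 hypoxia genes were lower and 2 higher. SESN2 held 293 to 376 at 1 µM and 384 to 436 at 2.5 µM, a difference that did not pass (0.28, adjusted p = 0.18).

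**Figure D4:**
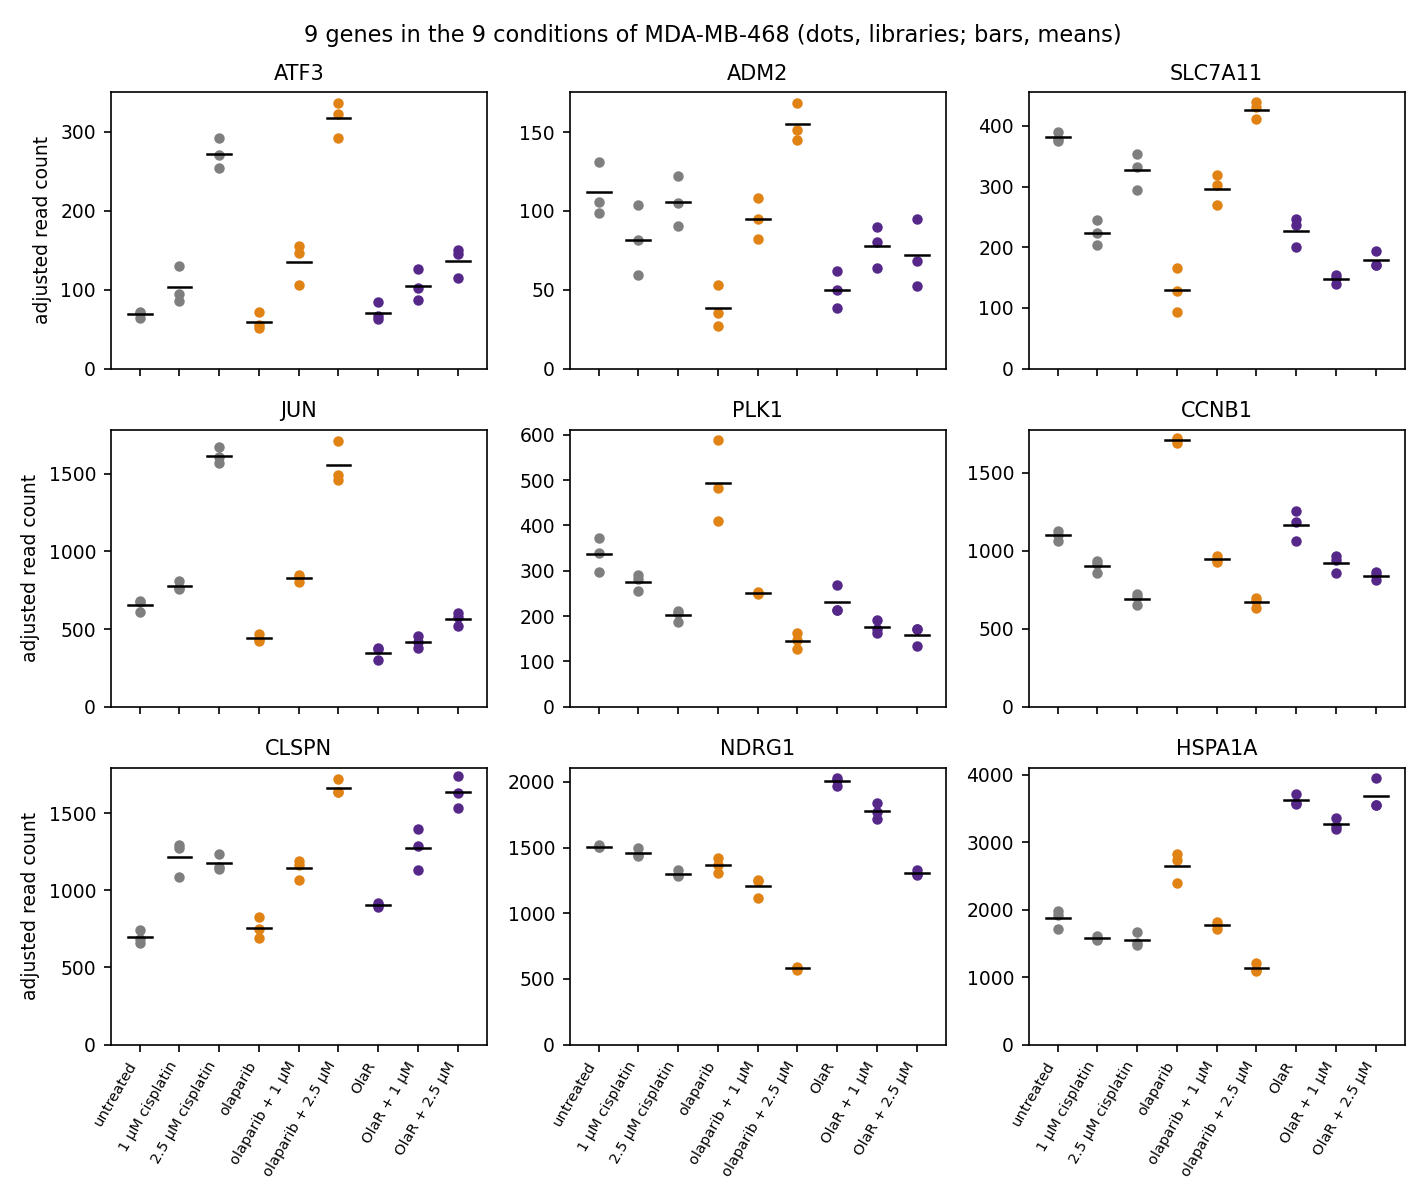
Adjusted read count (y axis, from 0) of 9 genes in the 9 conditions of MDA-MB-468 (x axis), with 3 dots for the libraries of each and a bar for their mean, gray without olaparib, orange with 3 µM olaparib and purple for OlaR cells. ADM2 and SLC7A11 are lower with olaparib than without and higher again with 2.5 µM CDDP added, while NDRG1 is lowest in olaparib with 2.5 µM CDDP.

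The change with 2.5 µM CDDP was then set against that in parental cells without olaparib. The comparison uses the same combination and olaparib libraries as the results above. Genes named for a large change there thus tend to show a large difference through that choice. The difference of the log2 fold changes (with minus without olaparib) passed the adjusted p in 2623 of 13012 genes, above 0 in 1059 (8.14%) and below 0 in 1564 (12%). It was above 0 in 30 of 44 stress response genes and below 0 in 0, and without olaparib 8 of the 44 rose and 8 fell, with a median of -0.04, where 13.3% of all genes rose and 11.8% fell. ADM2 stayed at 90.2 to 122 with CDDP alone against 98.5 to 131 untreated (log2 fold change -0.08, adjusted p = 0.84), and its difference was 2.10 (SE 0.31, adjusted p = 6.3e-07). SLC7A11 had a difference of 1.98 (SE 0.17, adjusted p = 8.6e-13) and STC2 of 1.62 (SE 0.12, adjusted p = 3.5e-15). For ATF3, which held 255 to 292 with CDDP alone, the log2 fold change was 1.97 and the difference did not pass (0.44, SE 0.23, adjusted p = 0.20). CTGF went the opposite way without olaparib, from 195 to 232 down to 77.4 to 93.7 (-1.31, adjusted p = 2.5e-07), and its difference was 3.12 (SE 0.26, adjusted p = 2.7e-13).

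Falls also differed with olaparib. The difference was below 0 in 33 of 78 G2/M genes and above 0 in 1, and with CDDP alone 35 of the 78 fell, against 11.8% of all genes, and 9 rose, a share near the 13.3% of all genes. PLK1 fell without olaparib by a log2 fold change of 0.73 (adjusted p = 5.9e-06), and the difference was -1.02 (SE 0.17, adjusted p = 9.2e-06). PIF1 fell by 1.5 without olaparib, and its difference did not pass (-0.18, SE 0.29, adjusted p = 0.74). TUBA1C, an alpha tubulin, HINT1, a nucleotide hydrolase, and SNORA19, a small nucleolar RNA, had the smallest p of the difference after CHAC1, which is left out here. TUBA1C held 4396 to 4623 adjusted reads untreated, 6086 to 6499 with CDDP alone, 7319 to 8330.4 with olaparib and 5421 to 5645 with both. It thus rose with CDDP alone (log2 fold change 0.48) and fell with CDDP added to olaparib (-0.49), with a difference of -0.97 (SE 0.07, adjusted p = 7.5e-16). HINT1 held 4027 to 4556, 5743 to 6047, 6291 to 6545 and 3764 to 4391 in the same order, with a difference of -1.12 (SE 0.08). E2F target and replication genes rose in both settings, 55 of 58 with CDDP alone, and the difference passed below 0 in 20 and above 0 in 2.

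**Figure D5:**
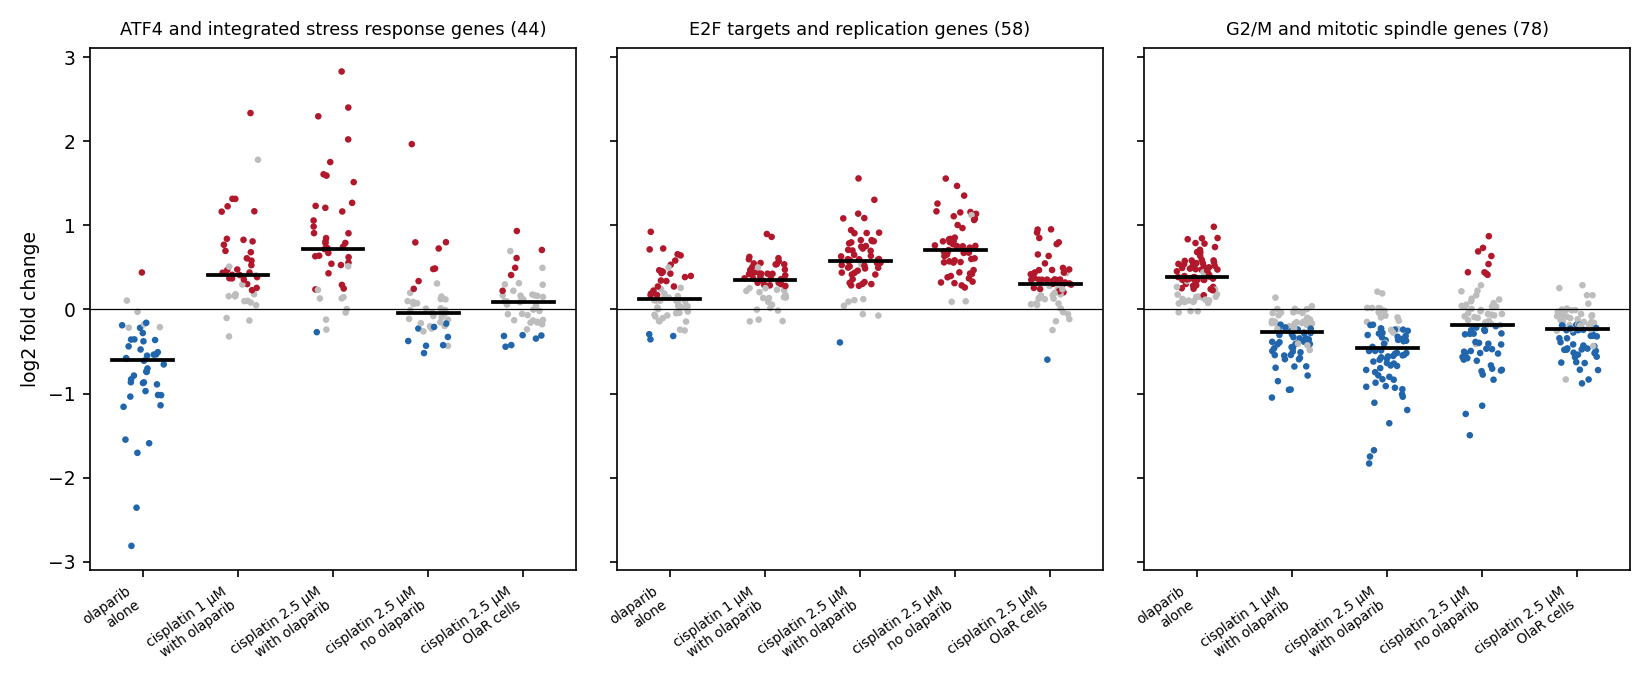
Log2 fold change (y axis) of the tested members of 3 gene lists (panels) in 5 comparisons (x axis), 1 dot per gene, red or blue where it rose or fell by adjusted p and gray where it did not pass, with the median as a bar. The first comparison is olaparib against untreated cells, the other 4 are CDDP against the same cells without it, and the stress response genes have a median of -0.60 with olaparib and of 0.72 with 2.5 µM CDDP added to it.

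Against OlaR cells, which were kept in 15 µM olaparib and so differ from the parental cells in dose and length of exposure as well as in selection, the change with 2.5 µM CDDP differed in 1958 of 13012 genes, above 0 (parental minus OlaR) in 972 (7.47%) and below 0 in 986 (7.58%). The difference was above 0 in 30 of 44 stress response genes and 17 of 58 replication genes, and below 0 in 22 of 78 G2/M and 13 of 33 hypoxia genes. The same combination and olaparib libraries enter the difference with and without olaparib, so the 2 differences are not independent. Genes named above for a large parental change were chosen on these libraries. ID4 held 181 to 232 adjusted reads in OlaR cells and 167 to 226 with CDDP (log2 fold change -0.08, adjusted p = 0.75), where the parental change was 2.30, and the difference was 2.38 (SE 0.19, adjusted p = 1.2e-13). ANKRD1 held 1.35 to 4.76 in OlaR cells and 3.15 to 4.85 with CDDP (0.24, adjusted p = 0.72), and the difference was 3.86 (SE 0.52, adjusted p = 1.7e-07). HSPA1A held 3569.8 to 3722 and 3549 to 3959 (0.02, adjusted p = 0.83), with a difference of -1.24 (SE 0.09, adjusted p = 1.9e-15), and STC1 held 1365 to 1443 and 1406 to 1621 (0.12, adjusted p = 0.23), with a difference of -1.29 (SE 0.09, adjusted p = 4.0e-15). CLSPN rose in OlaR cells from 893 to 916 up to 1532 to 1738 (0.85, adjusted p = 3.9e-13), and its difference was 0.29 (adjusted p = 0.046). CCNE2, E2F7 and TENM1 changed in OlaR cells by 0.95, 0.92 and -2.11, and their differences did not pass (0.61, 0.39 and 0.62 with SE of 0.27, 0.23 and 0.27).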

How the data were processed

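MDA-MB-468 cells were treated overnight, and 3′ mRNA libraries (Lexogen QuantSeq FWD) were sequenced and aligned to hg38. The submitters' processing notes name CASAVA 1.8.2, FastQC, STAR, HTSeq and edgeR, and the annotation and counting settings are not given in the sources used here. The authors deposited a signal of adjusted read counts, that is edgeR pseudo-counts scaled to a common effective library size of 5585170. Tables of the authors' own log2 fold changes and p-values against untreated parental cells were not used. Whole reads were recovered from 100% of 1483380 values (relative tolerance 1e-06) and gave depths of 2070301 to 9268162 reads in the 27 MDA-MB-468 libraries.

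log2(value + 1) was fitted in limma 3.58.1 (R 4.3.3, trend) over the 27 libraries in 9 groups of 3, for the 13012 genes that reached a value of 10 in 3 or more libraries, with Benjamini-Hochberg adjustment. The authors' adjustment was made within conditions, which can narrow the spread between libraries. Genes were called at an adjusted p of at most 0.05 and a 2-fold change, also for the dose step, and the differences by adjusted p alone. Counts of list members in the dose step were by adjusted p alone. In simulated data for this comparison over 12982 genes, calls were scored by adjusted p alone, without the fold limit. The changed genes were drawn from those with a mean of at least 30 reads. By this rule limma found 92% of 100 genes changed 2-fold and 100% of 100 changed 4-fold, with 1.03% of calls false. The share found with the 2-fold limit was not measured. edgeR 4.0.16 and DESeq2 1.42.0 on recovered reads were alternatives.

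Named genes were the 12 largest rises and 12 largest falls with a mean of at least 30 and no overlap between libraries. Added to these were up to 3 called members of each list (or the member with the smallest p), and the 3 smallest p of the dose step and of each difference. CHAC1, DUSP1, KIF20A, ANGPTL4, GADD45A, DUSP6 and EPHB1 were left out of the largest changes and of the smallest p. Of these, CHAC1, DUSP1, GADD45A, KIF20A and ANGPTL4 were picked from lists and enter the counts over named genes, but are not described. Members and lists were chosen with earlier results of these data known.

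Same-numbered libraries of the 2 groups did not deviate together (r of -0.030, -0.009 and -0.031 over genes). Of 27470 genes, 25201 matched a current and 1220 an older RefSeq symbol, and 12810 of the tested genes had a span. Results for a few genes are not reported here.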

Additional observations from a re-analysis of the deposited data

Results flagged for a closer look

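For 3 genes the change with 2.5 µM CDDP differed between parental cells with and without olaparib by the test of the difference in limma, with Benjamini-Hochberg adjustment. The log2 difference (with minus without olaparib) was -1.12 for HINT1, a nucleotide hydrolase, -2.96 for the small nucleolar RNA SNORA19 and -0.97 for TUBA1C, an alpha tubulin (adjusted p = 7.5e-16 for each). All 3 rose with CDDP alone and fell with CDDP added to olaparib. SNORA19 held 52.4 to 57.3 adjusted reads in untreated cells, 213 to 276 with CDDP alone, 217 to 284 with olaparib and 116 to 161 with both.

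For another 3 genes the change differed between parental cells with olaparib and OlaR cells. The log2 difference (parental minus OlaR) was -1.24 for HSPA1A, an inducible HSP70 with a near-identical copy (adjusted p = 1.9e-15), 2.38 for ID4, an inhibitor of helix-loop-helix factors (adjusted p = 1.2e-13), and -1.29 for STC1, a secreted hormone (adjusted p = 4.0e-15). None of the 3 changed with CDDP in OlaR cells by adjusted p.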

How the results depend on the processing

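The counts of 166 genes higher and 83 lower with 2.5 µM CDDP added to olaparib were 165 and 83 with the replicate number as a block (replicate block), 201 and 100 by edgeR, 196 and 107 by DESeq2 and 143 and 100 with median-centred values. Without a fold limit they were 1310 and 1700, and with a log2 fold change of at least 2 they were 20 and 8. Without any 1 library they ranged from 149 to 187 and from 73 to 93. The 20 genes higher and 18 lower at 2.5 than at 1 µM were fewer or more under several settings, with 31 higher by edgeR, 9 lower with a pseudocount of 5 and also 9 with values of at least 30, 6 lower in a fit of only the groups compared and 10 lower by DESeq2. Without a fold limit the dose step held 368 and 625 genes, and with a log2 fold change of at least 2 it held 1 and 5. Without any 1 library it held 12 to 32 higher and 13 to 29 lower. The difference with and without olaparib passed in 269 of its 2623 genes at a log2 size of at least 1 and in 2178 to 2524 without 1 library, and that between parental and OlaR cells in 276 of 1958 and in 1545 to 1894. The replicate block gave 20 and 16 for the dose step and 2566 and 1909 for the differences, and the numbers were not shown to pair the libraries. The causes were not tested. Fold limits change the rule, and a fit without a library has fewer samples.

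Of the values of named genes under these alternatives, 969 kept their direction and side of the threshold, 27 lost the call and 4 gained it, and none changed direction. The calls lost were of EGR3, DMC1, HIST1H2BF, HIST1H2AH and other genes of few reads, besides EXO1 and DFFB near 2-fold.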
